A study of Mus musculus with 150 samples.

Results

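The comparison is about a 145 kb deletion that removes the Dppa2 and Dppa4 end of an early replicating domain on mouse chromosome 16, made with or without a further 30 kb deletion to the right of the domain. Its members were chosen by genotype label and are 10 of the series' 150 samples, the early and late S-phase fractions of 5 embryonic stem cell clones. Clones 145k.30kdel A3 and E12 carry both deletions, chr16:48190129-48336437 and chr16:48665576-48695490 (mm10). Clone 145kdel G5 carries the left deletion alone, and clones 30kdel B11 and C2 carry the right deletion alone. All 5 are CRISPR-edited cas/129 hybrid cells, grown on gelatin in DMEM with 2i and LIF and untreated otherwise. The left deletion spans 146.3 kb, the right one 29.9 kb, and 329.1 kb lie between them. The 145kdel genotype rests on 1 clone, none of the listed cas/129 samples used here is unedited, and 6 columns named F121.9 that match no listed sample were not used. Whether the effects of both deletions add up was therefore not tested. The question was whether the 30 kb to the right of the domain adds to the loss of early replication that comes with the loss of the Dppa2 and Dppa4 side.

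Replication timing is the order in which chromosome segments are copied in S phase. It is laid down in domains much longer than most genes, and early domains are as a rule rich in active genes and open chromatin. Repli-seq reads it from newly made DNA: cells take up BrdU, are sorted into early and late S phase by DNA content, and the labelled DNA of both fractions is sequenced. Here the pulse lasted 2 hours, 40k cells were used per fraction, and each profile is a score at positions 5 kb apart, with a higher score for earlier replication. In hybrid cells, reads that differ between the parents give each chromosome copy its own profile. The svim column is the 129 copy and the cast column the castaneus copy, so the unedited copy of a clone serves as a comparison within the same nuclei.

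The left deletion contains Dppa4 (48283735 to 48294292) and Dppa2 (48310274 to 48319513), SAP-domain chromatin proteins expressed in pluripotent cells, and the pseudogene Gm7204. No annotated gene lies inside the right deletion. It falls between Morc1 (48431237 to 48630905), whose mouse protein represses transposable elements during male germ cell development, and Trat1 (48730774 to 48810547), a transmembrane adaptor that associates with the T cell receptor. The promoters listed in RefSeq nearest the deletion ends are shown because their scores are given next, on their own strand, with every CG in capitals. The promoter of the long noncoding RNA gene 6430553K19Rik (chr16:48158450-48158749, minus strand) starts 31.6 kb to the left of the left deletion, that of the long noncoding RNA gene Gm5485 (chr16:48412367-48412666, minus strand) starts 76.0 kb to its right, and that of Trat1 (chr16:48772013-48772312, minus strand) starts 76.6 kb to the right of the right deletion. The Trat1 promoter of that table lies inside the gene span given above, whose 5′ end on the minus strand is 48810547.
6430553K19Rik: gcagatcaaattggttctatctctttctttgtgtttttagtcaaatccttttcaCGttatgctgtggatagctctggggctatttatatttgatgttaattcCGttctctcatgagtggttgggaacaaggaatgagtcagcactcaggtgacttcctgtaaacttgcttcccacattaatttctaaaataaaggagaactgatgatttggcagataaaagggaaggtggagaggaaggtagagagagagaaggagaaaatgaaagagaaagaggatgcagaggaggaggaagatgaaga
Gm5485: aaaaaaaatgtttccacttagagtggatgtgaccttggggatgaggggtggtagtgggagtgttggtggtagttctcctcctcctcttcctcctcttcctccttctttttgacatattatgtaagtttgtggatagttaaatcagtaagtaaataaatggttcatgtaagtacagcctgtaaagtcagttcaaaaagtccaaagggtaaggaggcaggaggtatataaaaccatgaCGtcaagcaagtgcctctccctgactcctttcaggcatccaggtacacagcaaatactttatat
Trat1: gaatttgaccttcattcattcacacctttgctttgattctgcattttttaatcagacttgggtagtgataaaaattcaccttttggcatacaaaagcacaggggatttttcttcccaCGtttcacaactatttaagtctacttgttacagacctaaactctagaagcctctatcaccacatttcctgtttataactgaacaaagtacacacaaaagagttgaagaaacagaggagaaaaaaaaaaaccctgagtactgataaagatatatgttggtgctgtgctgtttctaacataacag
These 300 bases each (RefSeq, GRCm38.p6, the mm10 build) hold 2, 1 and 1 CG, searched as the letters CG, which read the same on both strands. Of the 1078 chromosome 16 promoters in the same table, 25.7% hold at most 2 CG, and the median is 6. Their GC contents are 40.0%, 41.7% and 35.3%, against a median of 51.7%.

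At the position nearest the listed start of Gm5485, the svim score was 1.58 and 1.02 in 145k.30kdel clones A3 and E12, 1.03 in 145kdel G5, and 2.22 and 3.09 in 30kdel clones B11 and C2. On the svim copy the 3 clones with the left deletion were thus all below both clones without it at this position. That order was found in 6.70% of all 50 kb svim windows of the chromosome. The cast score there was 2.99 and 2.77 in A3 and E12, 2.61 in G5, and 2.66 and 3.27 in B11 and C2, and the groups overlapped. At the promoter listed for Trat1 the svim score was 0.87 and 0.66 in A3 and E12, 0.64 in G5, and 1.37 and 1.73 in B11 and C2, without overlap. Its cast score was 1.18 and 1.52 in A3 and E12, 1.93 in G5, and 1.24 and 2.58 in B11 and C2. At the start of 6430553K19Rik, on the other side, the svim score was 0.62 and -0.13 in A3 and E12, 0.41 in G5, and 0.59 and 1.19 in B11 and C2, and the groups overlapped.

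The profiles show that the deletions sit on the svim copy. The svim column was blank at 29 of 29 positions of the left deletion in A3, E12 and G5, and at 0 of 29 in B11 and C2. At the right deletion it was blank at 6 of 6 positions in A3, E12, B11 and C2, and at 0 of 6 in G5. The cast column held a value at every one of these positions in all 5 clones. Positions inside either deletion were left out of every comparison, for both copies and all clones. Each column had 18963 to 18999 scored positions and the same interquartile range of 4.60, and in pairs of the 5 clones the columns correlated along the chromosome with Pearson's r between 0.97 and 0.99. Genes listed as early replicating had column medians of 2.51 to 3.10, and genes listed as late had -2.48 to -1.51, with the early list higher in all 10 columns. The lists were chosen with earlier results of these data known, so this is no independent check of direction. Single late genes reached 0.61 (Gap43, svim, A3) and 0.51 (Chodl, cast, G5), and the lowest early value was 1.28 (Ets2, cast, B11). Read depth is unknown, and the labels do not say whether clones came from separate targetings, so p-values measure spread between clones only. In the main limma fit this is the spread within genotypes, pooled over 43 clones of 26 genotypes, most of them other genotypes. G5, the lone clone of its genotype, adds nothing to that spread. Only the exact permutations and the fit on the 5 clones alone rest on these clones. The files hold no expression values, so stem cell markers could not be checked.

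**Figure D1:**
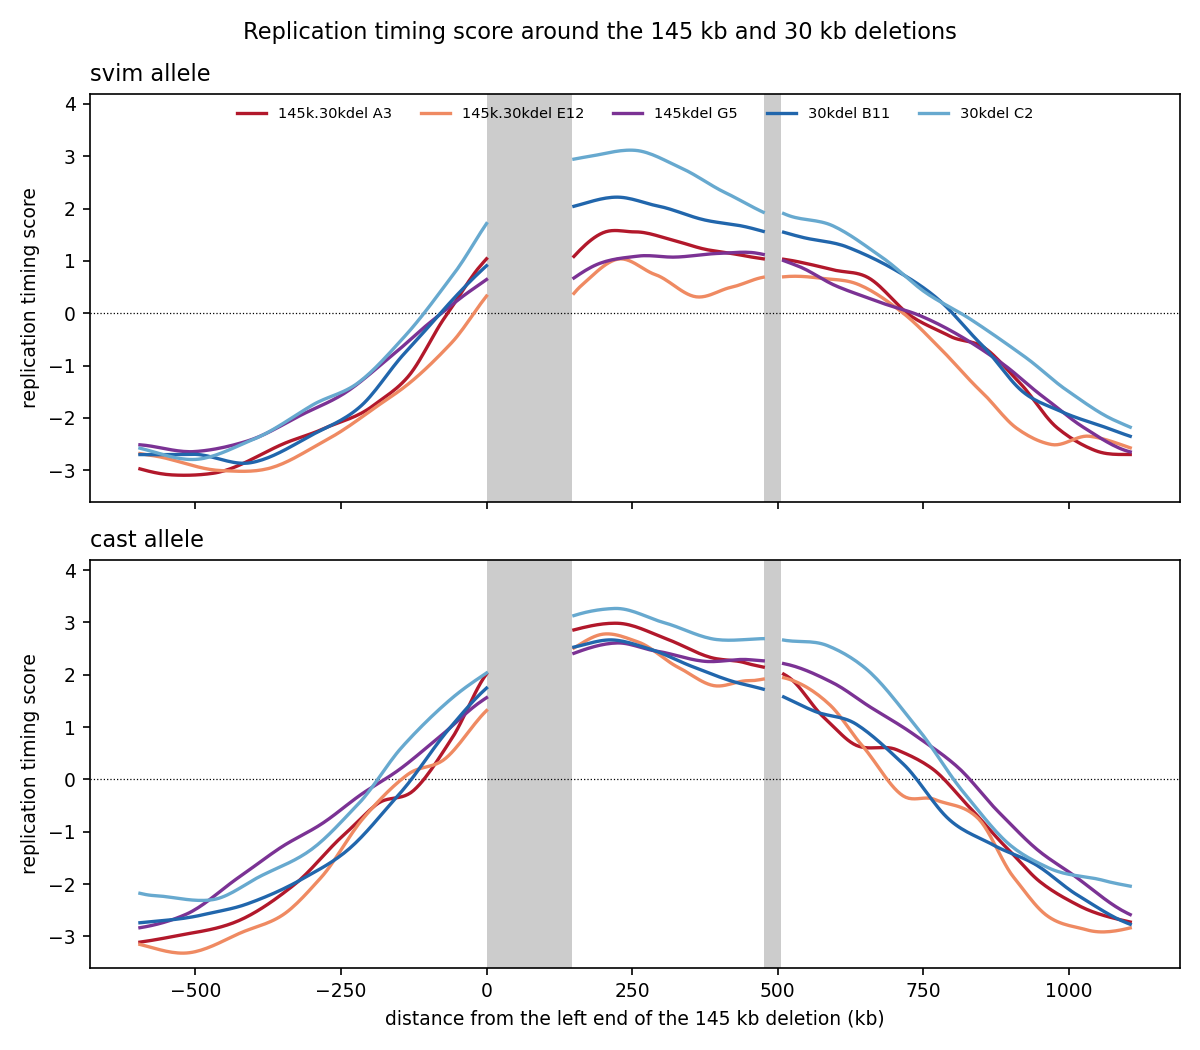
Replication timing score (vertical axis, score units) by distance from the left end of the 145 kb deletion (kb) for the svim copy (top) and the cast copy (bottom), 1 line per clone, with both deletions in grey. Between the deletions the svim lines of A3, E12 and G5 run below those of B11 and C2, while the cast lines of all 5 clones mix.

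What remains of the domain after the left deletion, from 48336438 to the right end of an interval deleted elsewhere in the series (48620367, 57 positions), had lower svim scores in the 3 clones with the left deletion than in the 2 without it, a difference that limma did not call. The mean svim score was 1.38 in A3 and 0.64 in E12 with both deletions, 1.05 in G5 with the left deletion alone, and 2.00 in B11 and 2.83 in C2 with the right deletion alone. G5 lay between the double deletion clones, and all 3 lay below both 30kdel clones, an order found in 6.70% of all 50 kb svim windows. The groups averaged 1.01 ± 0.52 in 145k.30kdel (SD, n = 2), 1.05 in 145kdel (n = 1), and 2.41 ± 0.59 in 30kdel (SD, n = 2). For scale, the upper quartile of the whole svim columns lay between 1.87 and 2.32 and their median between -1.53 and -0.94.

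Against the left deletion alone, the double deletion differed in the rest of the domain by -0.04 on the svim copy (SE 0.76, 95% interval -1.60 to 1.53, limma adjusted p = 0.99). No added loss was called in the rest of the domain, and this interval, from the spread over all 43 clones, reaches beyond the difference of 145kdel from 30kdel, so an added loss of that size was not detectable in this fit. The fit on the 5 clones alone gave a narrower interval of -0.89 to 0.82 (SE 0.44, 2 residual degrees of freedom), which leaves out a loss of that size. Its SE was the same to the left of the domain and to the right of the right deletion. The narrower interval thus rests on a spread within 2 pairs of clones that is shared along the svim copy, not on their spread in this region. The sign of the double against 145kdel difference followed single choices: without E12 it was 0.33, without A3 it was -0.40, after rescaling the columns on the rest of the chromosome it was 0.46, and after quantile normalization it was 0.46. The median over all 1896 svim windows was itself -0.20 between these genotypes, and relative to that shift the difference was 0.16 as deposited, 0.13 after rescaling and 0.47 after quantile normalization.

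Against the right deletion alone, the double deletion was lower in the rest of the domain by 1.40 on the svim copy (difference -1.40, SE 0.62, 95% interval -2.68 to -0.13). The unadjusted limma p was 0.033 and the adjusted p over all windows and regions was 1.00, so it was not called. G5 against the same 30kdel clones gave -1.37 (SE 0.76, 95% interval -2.93 to 0.20, limma adjusted p = 1.00). Both differences use the same 30kdel clones and are therefore not independent. Without C2 they were -0.99 and -0.95, and without B11 -1.82 and -1.78. A fit on the 5 clones alone called the double against 30kdel difference (SE 0.36, limma adjusted p = 0.026), while its size is the same by construction. This fit gave the same svim SE to the left of the domain and to the right of the right deletion. The call thus rests on a spread shared along the svim copy, not on these clones' spread in this region, which has 2 residual degrees of freedom. The same fit also called windows on the unedited cast copy far from the deletions, such as 38350001 to 38400000 (limma adjusted p = 0.0034).

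The unedited cast copy of the same clones did not separate the genotypes. Its mean score in the rest of the domain was 2.69 in A3 and 2.33 in E12, 2.43 in G5, and 2.36 in B11 and 3.00 in C2. The groups overlapped, with 2.51 ± 0.25 in 145k.30kdel (SD, n = 2), 2.43 in 145kdel and 2.68 ± 0.45 in 30kdel (SD, n = 2). The differences were 0.08 for double against 145kdel (95% interval -1.59 to 1.76), -0.17 for double against 30kdel (-1.54 to 1.20) and -0.26 for 145kdel against 30kdel (-1.93 to 1.42).

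Taken within each clone, the svim copy scored below the cast copy in the rest of the domain in all 5 clones, and by more in the 3 with the left deletion. The svim minus cast difference was -1.31 in A3 and -1.69 in E12, -1.38 in G5, and -0.37 in B11 and -0.17 in C2. The 3 clones with the left deletion lay below both others, an order found in 10.8% of all 50 kb windows on that measure. The share of windows with svim below cast in all 5 clones was not counted. The groups averaged -1.50 ± 0.27 in 145k.30kdel (SD, n = 2), -1.38 in 145kdel and -0.27 ± 0.14 in 30kdel (SD, n = 2). Within both pairs of clones the SD was smaller than on the svim score alone, while over the 43 clones of 26 genotypes in the fit the residual SD was larger, at 1.15 against 0.70 on svim. The double deletion differed from 145kdel by -0.12 (SE 1.15, 95% interval -2.49 to 2.25) and from 30kdel by -1.23 (SE 0.94, 95% interval -3.17 to 0.70), and 145kdel differed from 30kdel by -1.11 (SE 1.15, 95% interval -3.48 to 1.26), none of them called by limma (adjusted p = 1.00 in each). With the inversion genotypes left out, an alternative chosen after seeing the data, the same differences had standard errors of 0.49, 0.40 and 0.49, and intervals of -1.12 to 0.88, -2.05 to -0.42 and -2.11 to -0.11, with limma adjusted p still between 0.86 and 1.00.

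**Figure D2:**
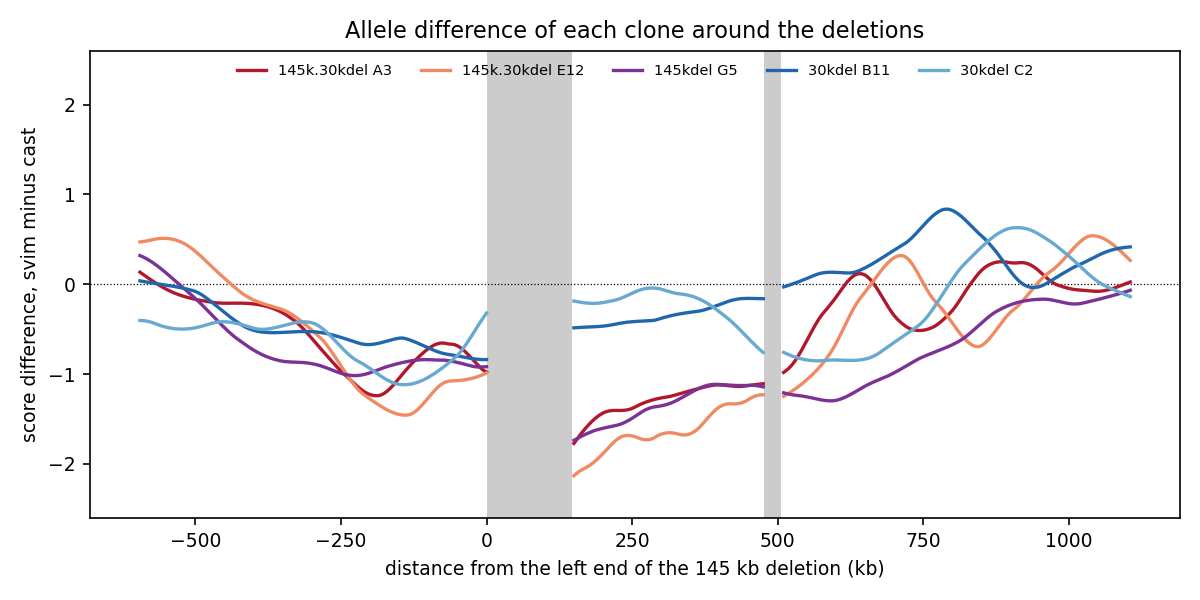
Score difference svim minus cast (vertical axis, score units) by distance from the left end of the 145 kb deletion (kb), 1 line per clone, deletions in grey. Between the deletions A3, E12 and G5 run together well below 0, with B11 and C2 above them, and to the right of the 30 kb deletion the order changes.

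An exact two-sided permutation of the clones, 3 with the left deletion against 2 without, gave p = 0.1 for the rest of the domain on svim and on svim minus cast, which is the smallest p this number of clones allows. Over the 12 tests of 4 regions and 3 measures the Benjamini-Hochberg adjusted value was 0.24 for both. For the cast copy the exact p was 0.6. The double deletion against 30kdel cannot go below 0.333 by permutation with 2 clones each, and gave 0.333 on svim and on svim minus cast.

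The allele difference was graded along the remaining domain in every clone except C2. In the part next to the left deletion (48336438 to 48437301, with Gm5485 and the start of Morc1), svim minus cast was -1.50 and -1.89 in A3 and E12, -1.62 in G5, and -0.46 and -0.19 in B11 and C2. In the middle part (48437302 to 48581358, inside Morc1) it was -1.24 and -1.65 in A3 and E12, -1.29 in G5, and -0.35 and -0.11 in B11 and C2. In the part farthest from the left deletion (48581359 to 48620367, Morc1 and the noncoding gene Gm41458) it was -1.13 and -1.34 in A3 and E12, -1.12 in G5, and -0.20 and -0.37 in B11 and C2. All 3 clones with the left deletion thus had their most negative value in the first part and their least negative in the last, with the double deletion on either side of G5 in the first 2 parts. B11, whose left side is intact, had the same order, so the grading was not particular to the left deletion. In the gap between the domain and the right deletion (48620368 to 48665575) it was -1.12 and -1.27 in A3 and E12, -1.13 in G5, and -0.16 and -0.64 in B11 and C2.

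On the svim score itself the profiles had different shapes. In A3 and E12 the highest score of the remaining domain lay 73.6 and 83.6 kb to the right of the left deletion, at 1.58 and 1.04, and the last part scored lower than the first, by a difference of -0.29 and -0.34. In G5 the highest score, 1.16, lay 283.6 kb to the right, at the far end of the region, and the last part scored higher than the first by 0.22. In B11 and C2 the highest scores, 2.22 and 3.12, lay at 78.6 and 98.6 kb, with the last part lower by -0.45 and -0.75. On the cast copy the highest score lay between 58.6 and 78.6 kb in all 5 clones. The G5 shape is that of 1 clone, was noticed in the profiles, and has no test.

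**Figure D3:**
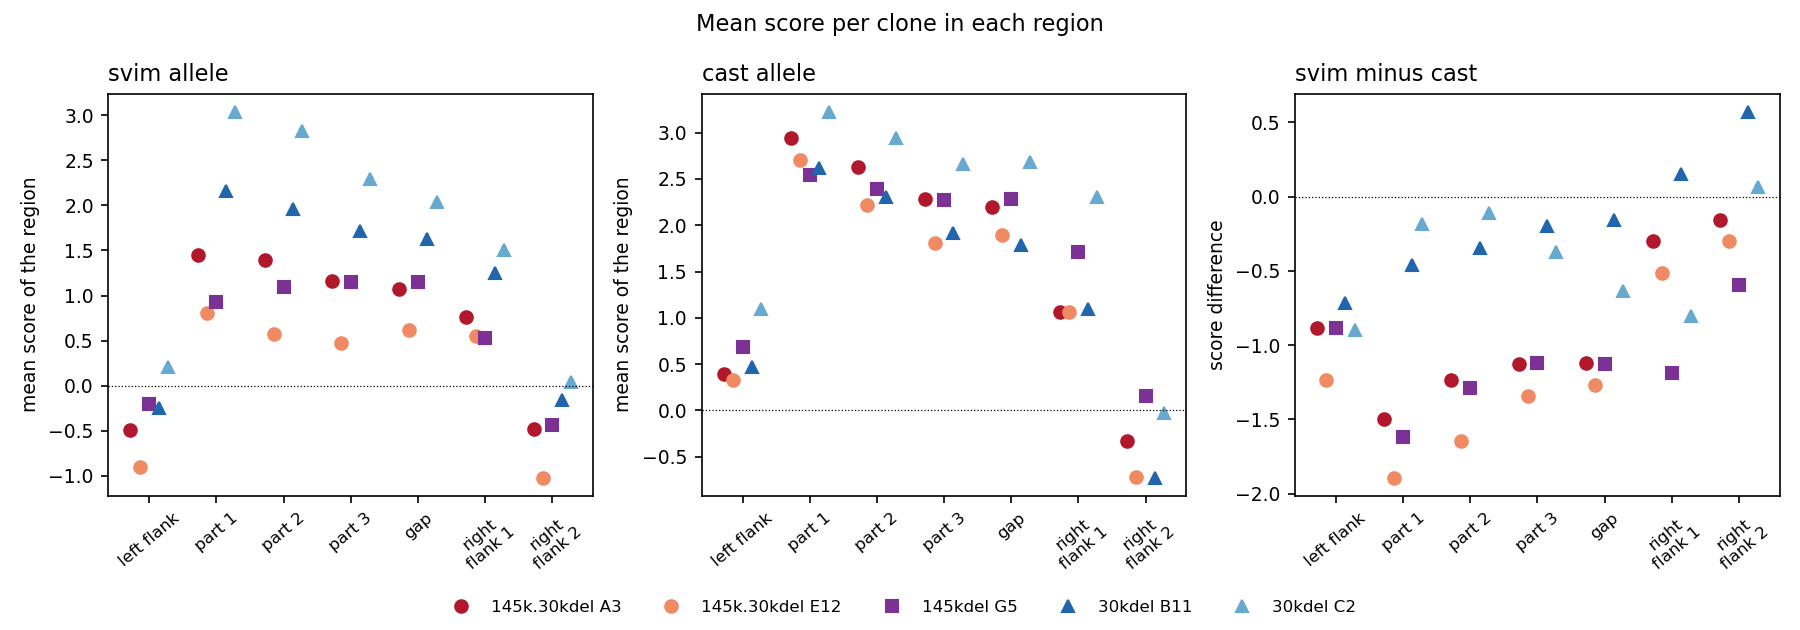
Mean score of each region (vertical axis, score units) for the svim copy, the cast copy and svim minus cast, 1 point per clone, with circles for 145k.30kdel, a square for 145kdel and triangles for 30kdel. On svim minus cast the 3 clones with the left deletion sit between -1.89 and -1.12 in the 3 domain parts, below both 30kdel clones, and on that measure the groups overlap in the left flank and the first right flank.

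To the right of the right deletion the clones with the left deletion again had the lower svim scores, with no limma call. In the first 200 kb (48695491 to 48895490, with Trat1 and the resistin-like genes Retnlb, Retnla and Retnlg, which encode secreted proteins) the svim score was 0.76 in A3 and 0.55 in E12, 0.53 in G5, and 1.25 in B11 and 1.50 in C2, without overlap between clones with and without the left deletion. All 4 windows of 50 kb in this stretch had that order on svim, against 6.70% of all 1896 windows. Double against 145kdel differed by 0.13 (SE 0.56, 95% interval -1.03 to 1.28), double against 30kdel by -0.72 (SE 0.46, 95% interval -1.66 to 0.22), and 145kdel against 30kdel by -0.85 (SE 0.56, 95% interval -2.00 to 0.30), none called by limma (adjusted p = 0.98, 1.00 and 1.00). The cast score in the same stretch was 1.06 in both A3 and E12, 1.71 in G5, and 1.10 in B11 and 2.31 in C2. The 30kdel clones thus differed by 1.21 on the cast copy and by 0.25 on the svim copy.

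Svim minus cast in these first 200 kb was -0.30 in A3 and -0.51 in E12, -1.19 in G5, and 0.15 in B11 and -0.81 in C2. Both double deletion clones lay above G5, by 0.78 on average (SE 0.69, 95% interval -0.64 to 2.21, limma adjusted p = 1.00), and on the cast copy alone they lay below it. All 4 windows of this stretch had both double deletion clones above G5 on svim minus cast, as did 36.3% of all 1893 windows. On cast all 4 had both of them below G5, as did 1155 of all 1893 windows. The clones B11 and C2 of the 30kdel genotype differed by 0.96 from each other here, more than the double deletion differed from 145kdel.

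In the next 200 kb (48895491 to 49095490, with Dzip3, a RING-type ubiquitin ligase, Cip2a, an inhibitor of protein phosphatase 2A, and the start of the myosin heavy chain gene Myh15) the svim score was -0.49 in A3 and -1.02 in E12, -0.44 in G5, and -0.16 in B11 and 0.04 in C2. Double against 145kdel differed by -0.31 (SE 0.49, 95% interval -1.32 to 0.70) and double against 30kdel by -0.69 (SE 0.40, 95% interval -1.52 to 0.13). On svim minus cast the values were -0.16 in A3 and -0.30 in E12, -0.60 in G5, and 0.57 in B11 and 0.07 in C2, again without overlap, an order found in 10.8% of all 50 kb windows on that measure. There 145kdel against 30kdel gave -0.92 (SE 0.43, 95% interval -1.80 to -0.03), with an unadjusted limma p of 0.042 and an adjusted p of 1.00. The exact permutation p, 3 clones against 2, was 0.1 for svim in both right stretches and for svim minus cast in the second, and 0.6 for svim minus cast in the first.

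The point where the svim score fell to 0 or below lay nearer to the right deletion in the clones with the left deletion: 219.5 kb to its right in A3 and 214.5 kb in E12, 229.5 kb in G5, and 299.5 kb in B11 and 309.5 kb in C2. On the cast copy it lay at 284.5 and 184.5 kb in A3 and E12, 324.5 kb in G5, and 234.5 and 299.5 kb in B11 and C2, with the groups overlapping.

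To the left of the domain both double deletion clones had lower scores than the other 3 clones on each copy, with no limma call. Along the chromosome both lay below G5 in 1071 of 1896 svim windows and 1155 of 1893 cast windows. The share of windows with both below all of the other 3 clones was not counted, so the order is a description only. Relative to the median shift over all windows, the left flank difference from 145kdel was -0.29 on svim and -0.09 on cast. In the 200 kb before the left deletion (47990129 to 48190128, with 6430553K19Rik) the svim score was -0.49 in A3 and -0.90 in E12, -0.20 in G5, and -0.25 in B11 and 0.20 in C2. The cast score was 0.39 in A3 and 0.33 in E12, 0.68 in G5, and 0.47 in B11 and 1.10 in C2. G5 lay between the 30kdel clones on both copies. Double against 145kdel differed by -0.49 on svim (SE 0.89, 95% interval -2.34 to 1.35) and -0.32 on cast (SE 0.68, 95% interval -1.71 to 1.08), and double against 30kdel by -0.67 on svim (SE 0.73, 95% interval -2.18 to 0.83) and -0.42 on cast (SE 0.55, 95% interval -1.56 to 0.72). Rescaling turned the difference from 145kdel to 0.024 on svim and 0.34 on cast, and quantile normalization turned it to 0.20 on cast. Between 145kdel and 30kdel the difference was -0.18 on svim (SE 0.89, 95% interval -2.02 to 1.66) and -0.10 on cast (SE 0.68, 95% interval -1.50 to 1.29).

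In the left flank the groups overlapped on svim minus cast. The difference was -0.89 in A3 and -1.23 in E12, -0.88 in G5, and -0.72 in B11 and -0.90 in C2, so the svim copy was the later one here in all 5 clones, those with an intact left side included. How many windows along the chromosome share that order was not counted. Double against 145kdel differed by -0.18 on svim minus cast (SE 1.28, 95% interval -2.80 to 2.44), double against 30kdel by -0.25 (SE 1.04, 95% interval -2.39 to 1.89), and 145kdel against 30kdel by -0.07 (SE 1.28, 95% interval -2.69 to 2.54).

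**Figure D4:**
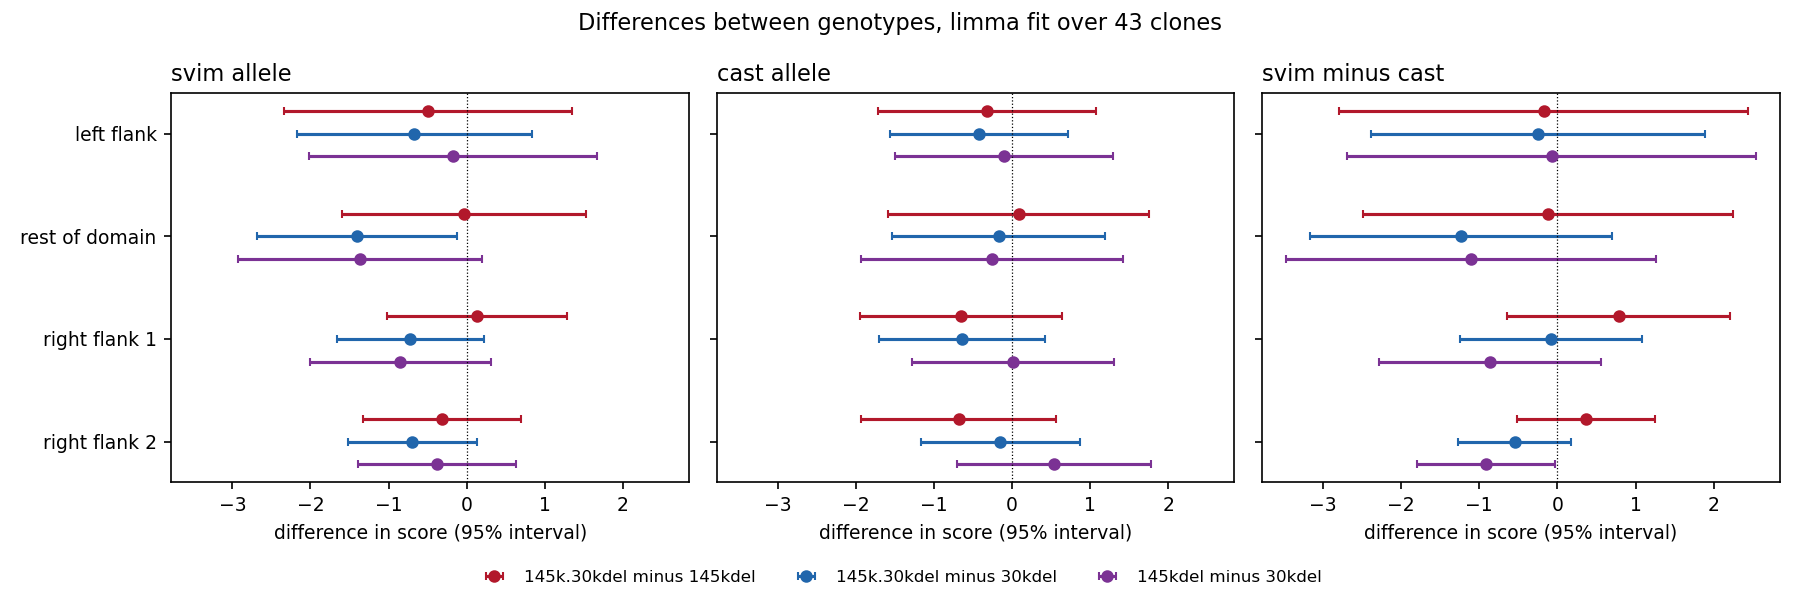
Differences between genotypes (horizontal axis, score units) with 95% intervals from the limma fit, for 4 regions (rows) on svim, cast and svim minus cast (panels). In the rest of the domain the svim differences of 145k.30kdel and 145kdel from 30kdel are -1.40 and -1.37, and the difference between the first 2 genotypes is -0.04.

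By gene, Morc1 was the domain gene with values, since Dppa4 and Dppa2 lie inside the left deletion. Its mean svim score was 1.34 in A3 and 0.57 in E12, 1.11 in G5, and 1.91 in B11 and 2.70 in C2, and its svim minus cast difference was -1.22 and -1.57 in A3 and E12, -1.26 in G5, and -0.31 and -0.18 in B11 and C2. Over the 677 genes tested, limma called 0 in every one of the 9 comparisons (0% of genes), with between 2 and 16 genes at an unadjusted p under 0.05. The 12 measured genes of the right list, from Trat1 to the adhesion molecule gene Alcam, had a median svim difference of 0.14 between double and 145kdel, against -0.0002 over all genes (5 of 12 lower), and of -0.68 between double and 30kdel, against 0.01 over all genes (10 of 12 lower). Between 145kdel and 30kdel it was -0.63, against 0.06 over all genes (10 of 12 lower). On the cast copy the same medians were -0.65 for double against 145kdel, against -0.07 over all genes (10 of 12 lower), -0.63 for double against 30kdel, against -0.0055 (10 of 12 lower), and -0.03 for 145kdel against 30kdel, against 0.06 (6 of 12 lower). The list's median for double against 30kdel was thus below 0 on both copies. The svim minus cast medians were 0.32, 0.12 and -0.67 in the same order, against 0.04, 0.06 and 0.0013 over all genes. These genes share stretches of the profile and are not independent.

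Among the nearest right genes, Retnlb had svim scores of 0.78 and 0.59 in A3 and E12, 0.40 in G5, and 1.23 and 1.47 in B11 and C2, and Retnlg had 0.41 and 0.25 in A3 and E12, 0.17 in G5, and 0.93 and 1.02 in B11 and C2. For both, the 3 clones with the left deletion lay below both 30kdel clones, as in 6.70% of all 50 kb svim windows. Myh15, farther right, had -1.63 and -2.27 in A3 and E12, -1.43 in G5, and -1.53 and -0.96 in B11 and C2, and overlapped. Cd47, whose product is a surface signal that restrains phagocytes, had -0.12 and -0.18 in A3 and E12, -0.62 in G5, and 0.74 and 0.52 in B11 and C2 on svim. Its cast score was likewise lower, at -1.35 and -1.29 in A3 and E12 and -1.48 in G5, against -0.52 and -0.46 in B11 and C2, so svim minus cast overlapped at 1.23 and 1.11 in A3 and E12, 0.86 in G5, and 1.25 and 0.98 in B11 and C2. The 6 measured genes of the left list lie between 45711230 and 46498535, outside the regions above. There the double deletion had a median difference from 145kdel of -0.96 on svim, against -0.0002 over all genes, and of -0.84 on cast, against -0.07, with 5 of 6 lower on each. From 30kdel it had a median difference of -0.34 on svim, against 0.01 over all genes, and of -0.61 on cast, against -0.0055, with 6 of 6 lower on each. Between 145kdel and 30kdel the median was 0.62 on svim and 0.27 on cast, against 0.06 over all genes on each. The svim minus cast medians of double against 145kdel, double against 30kdel and 145kdel against 30kdel were -0.21, 0.14 and 0.24. Cd96, Plcxd2, Phldb2, Abhd10 and Tagln3 lie side by side, share stretches of the profile and are not independent. Nectin3, apart from them, was the left gene that was higher against 145kdel, by 0.15 on svim and 0.71 on cast.

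Along the chromosome, limma called 0 of 1896 svim windows and 0 of 1893 cast or svim minus cast windows of 50 kb in each of the 3 comparisons (0% of windows). At an unadjusted p under 0.05 there were 27, 15 and 5 svim windows for double against 145kdel, double against 30kdel and 145kdel against 30kdel, then 19, 27 and 9 cast windows and 24, 35 and 14 svim minus cast windows in the same order. The 3 clones with the left deletion were all below both 30kdel clones in 5 of the 5 windows of the remaining domain on svim, against 6.70% of all windows, in 0 of 5 on cast, against 8.08%, and in 5 of 5 on svim minus cast, against 10.8%. On svim minus cast the gap between the highest clone with the left deletion and the lowest 30kdel clone was 0.87 to 1.03 in these windows, which ranked 1 to 5 among 1893 windows. On svim the gap was 0.56 to 0.71, with ranks of 5 to 14 among 1896. Neighbouring windows share a smoothed profile, so the 5 are not independent, and the ranks are a description with no test.

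**Figure D5:**
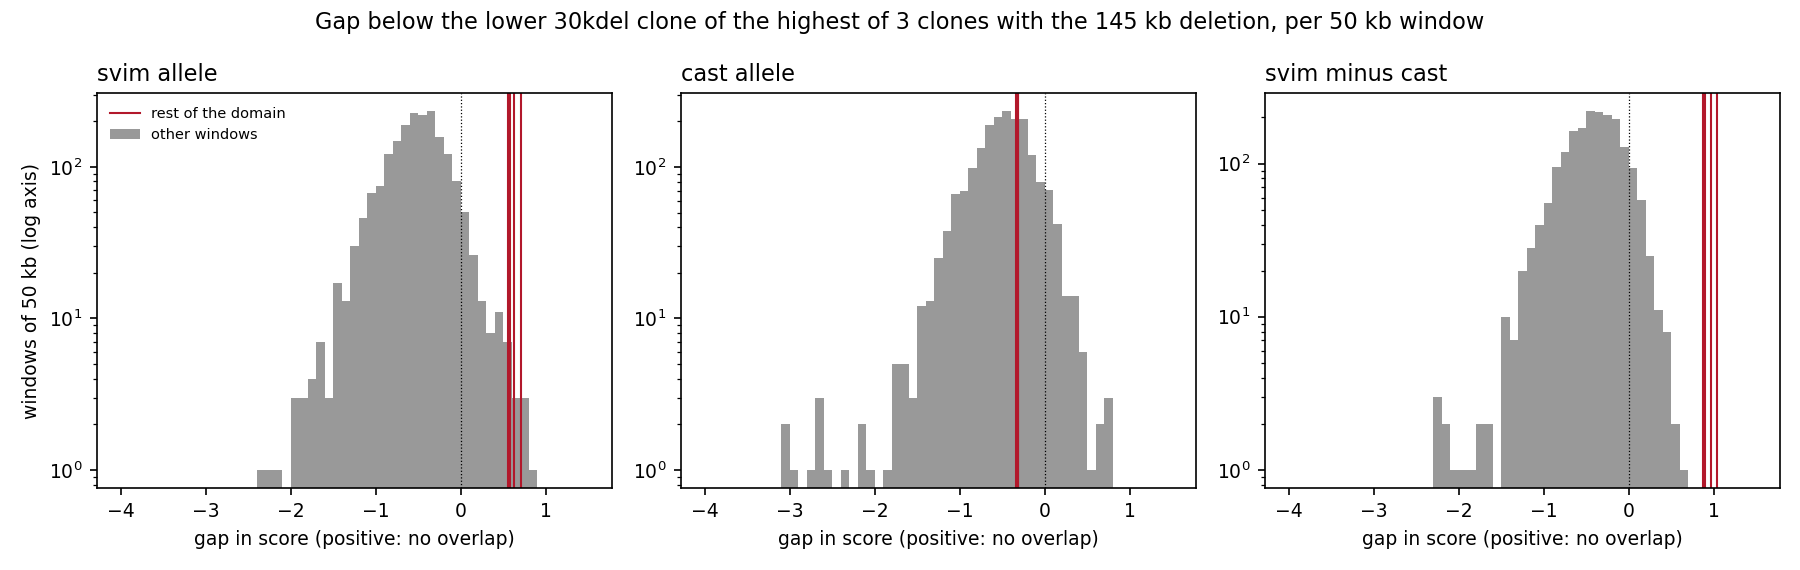
Number of 50 kb windows (log axis) by the gap in score between the highest of the 3 clones with the left deletion and the lowest 30kdel clone, positive where the groups do not overlap, with the 5 windows of the remaining domain as red lines. On svim minus cast the red lines, at 0.87 to 1.03, lie to the right of all other windows, and on cast they lie at -0.33 to -0.32, among the bulk.

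For double against 145kdel, the 5 domain windows differed by between -0.35 and 0.22 on svim and between -0.18 and -0.02 on svim minus cast. The central 95% of all windows ran from -1.10 to 0.52 on svim and from -0.65 to 0.80 on svim minus cast, so the domain windows sat within the range seen along the chromosome. In the first right stretch the svim minus cast window differences were 0.30 to 1.11, in part above that range.

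The deposited profiles run smoothly over the deleted gaps. Across the left deletion the svim score stepped by 0.05 in A3, 0.05 in E12 and 0.03 in G5, against steps of 0.03 to 0.08 between the neighbouring 5 kb positions, while across the same intact stretch it differed by 1.14 in B11 and 1.23 in C2. Across the right deletion the svim step was -0.01 in A3, 0.01 in E12, -0.02 in B11 and -0.03 in C2. The part that smoothing over the joined ends plays in the svim values next to the deletions was not tested. With 25 kb beside each deletion left out, the svim differences in the rest of the domain were -0.05 for double against 145kdel, -1.38 for double against 30kdel and -1.33 for 145kdel against 30kdel, and with 100 kb left out, a setting chosen after seeing the data, they were -0.09, -1.42 and -1.34.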

How the data were processed

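Repli-seq scores of chromosome 16 were used. The deposited score has 1 value per 5 kb position, clone and chromosome copy, and was made by the authors from the early and late fractions. The submitters' processing notes name Bowtie2, SAMtools, bedtools and mm10. Its smoothing, scaling, filters and log base were not given in the sources used here. Differences are therefore printed in score units. Of 129 value columns 100 were used. Of the others, 6 named F121.9 match no listed sample, and the rest belong to listed samples outside the cas/129 stem cell clones. Clones and gene lists were chosen with earlier results of these data known.

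Positions inside both deletions were left out. Scores were averaged over 50 kb windows with at least 50% of their positions, over regions bounded by labelled edit ends, and over protein-coding gene bodies widened by 2500 bases (refseq_genes annotation, GRCm38.p6). Each was fitted with limma 3.58.1 (R 4.3.3, lmFit and eBayes) over 43 cas/129 clones in 26 genotype groups, repeat libraries averaged, with Benjamini-Hochberg adjustment over windows and regions, or over genes, and a threshold of 0.05. The lone 145kdel clone was assumed to vary like clones of other genotypes. Exact permutations used the 5 clones. The named regions and genes were the bounds and lists of the design: of these Zbed2, Gm4827, Guca1c and Hhla2 were not found among the protein-coding genes tested. The fit was tested on simulated data. Other scalings, windows, clones left out, and distances from the deletions were tried. Read depth per sample is unknown, so no counting interval is given.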

Additional observations from a re-analysis of the deposited data

How the results depend on the processing

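Over the alternatives tried, the svim and svim minus cast differences of 145k.30kdel from 30kdel and of 145kdel from 30kdel in the rest of the domain stayed negative, and each region difference that changed sign was smaller than its standard error where it did. The cause of each change was not tested. No paired analysis was possible because clones of different genotypes share no replicate number, and only the 2 copies within a clone are paired, in svim minus cast. Leaving out 1 clone at a time turned the sign of 11 of 36 region differences. For 145k.30kdel against 145kdel in the rest of the domain the ranges were -0.40 to 0.33 on svim, -0.095 to 0.26 on cast and -0.31 to 0.067 on svim minus cast. For 145k.30kdel against 30kdel they were -0.49 to 0.15 on cast in the rest of the domain, -0.50 to 0.20 on cast in the second right stretch and -0.56 to 0.40 on svim minus cast in the first. For 145kdel against 30kdel they were -0.40 to 0.046 on svim, -0.42 to 0.21 on cast and -0.16 to 0.015 on svim minus cast in the left flank, -0.57 to 0.064 on cast in the rest of the domain and -0.59 to 0.62 on cast in the first right stretch.

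Rescaling on the rest of the chromosome turned 145k.30kdel against 145kdel on svim to 0.024 in the left flank, 0.46 in the rest of the domain and 0.21 in the second right stretch, and on cast to 0.34 in the left flank and 0.0052 in the first right stretch. It turned 145k.30kdel against 30kdel on cast to 0.10 in the rest of the domain and 0.11 in the second right stretch, and 145kdel against 30kdel on cast to -0.38 in the first right stretch. Quantile normalization turned 145k.30kdel against 145kdel to 0.46 in the rest of the domain and 0.11 in the second right stretch on svim, 0.20 in the left flank on cast and 0.25 in the rest of the domain on svim minus cast. It turned 145k.30kdel against 30kdel to 0.15 on cast in the second right stretch and 0.019 on svim minus cast in the first, and 145kdel against 30kdel to -0.26 on cast in the first. With 30kdel pooled with other clones, 145kdel against it in the left flank was 0.0079 on svim and 0.0097 on cast. With 25 kb beside the deletions left out, the first right stretch gave -0.000212 on cast for 145kdel against 30kdel and 0.0046 on svim minus cast for 145k.30kdel against 30kdel. With 100 kb left out, 145kdel against 30kdel gave 0.033 on svim and 0.064 on cast in the left flank and -0.027 on cast in the first right stretch, and 145k.30kdel against 30kdel gave 0.23 on svim minus cast there.

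The fit on the 5 clones alone called 7 svim and 8 cast windows and 12 cast genes for 145k.30kdel against 30kdel, and 1 cast gene, Kcnj15, for 145kdel against 30kdel, and it called the rest of the domain on svim (-1.40). On svim minus cast, genes called for 145k.30kdel against 30kdel numbered 6 after rescaling, 4 after quantile normalization, 4 with robust eBayes and 5 on the gene body alone. Every other alternative called 0 windows and 0 genes.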

Other observations

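Outside the deletions, a cluster of stefin A and cystatin-domain genes, which encode cysteine protease inhibitors, came nearest to a call, and these genes were picked after their values were seen. Cstdc6 (chromosome 16, 36321665 to 36334332) had svim minus cast differences of -0.28 in A3 and -0.79 in E12 with both deletions, 0.75 in G5 with the left deletion alone, and 0.66 in B11 and 0.91 in C2 with the right deletion alone. The difference of 145k.30kdel from 30kdel was -1.32 (SE 0.31, limma adjusted p = 0.054), and over the alternatives that called it the adjusted p was 0.015 to 0.045. On svim its score was 2.01 and 1.21 in A3 and E12, 2.27 in G5, and 1.87 and 2.48 in B11 and C2, and on cast it was 2.29 and 2.00 in A3 and E12, 1.52 in G5, and 1.21 and 1.57 in B11 and C2. The cast copy was earlier in both double deletion clones than in the other 3. Both lay above G5 in 334 of 1893 cast windows along the chromosome, and the share above all of the other 3 was not counted. Genes of this family are close copies of one another, so reads may be split among them and the values are uncertain.

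A second far stretch, also picked after its values were seen, differed on the cast copy. Popdc2 (38362161 to 38378216), which encodes a membrane protein of muscle, had cast scores of 1.74 in A3 and 2.32 in E12, 3.19 in G5, and 3.39 in B11 and 4.14 in C2, with both double deletion clones below the other 3. Both lay below G5 in 1155 of 1893 cast windows along the chromosome, and the share below all of the other 3 was not counted. The difference of 145k.30kdel from 30kdel was -1.73 (SE 0.78, limma adjusted p = 1.00), larger in size than the svim difference in the rest of the domain. On svim its scores were 1.45 in A3 and 3.50 in E12, 2.14 in G5, and 2.48 in B11 and 3.21 in C2, so the double deletion clones lay on either side of the others.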
